A study of Mus musculus with 48 samples.

Results

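The 2 methylation marks of lysine 4 on histone H3, H3K4me3 (trimethylated) and H3K4me1 (monomethylated), were compared in hippocampal CA neurons of control mice. The material was the peak list of every control neuron ChIP-seq library of either mark: 4 libraries for H3K4me3 and 4 for H3K4me1, 8 of the 48 libraries of the series. Control animals were adult C57BL/6J mice of 4 to 6 months with the genotype Control; the other genotype of the series, Setd1b cKO, has the same strain and age and is labelled as a conditional knockout of Setd1b, the gene of an H3K4 methyltransferase. The alleles that controls carry and the Cre driver are not given in the sources used here, and nothing in them says whether replicates were separate animals, so that spreads and p-values refer to the spread between these libraries. Nuclei were fixed and neuronal nuclei were sorted before chromatin immunoprecipitation, in which DNA bound to a marked histone is recovered with an antibody (Abcam ab8580 for H3K4me3, Abcam ab8895 for H3K4me1) and sequenced. A peak is a stretch of the genome where the peak caller, MACS2, found more sequenced tags in the immunoprecipitated library than in an input library of the same genotype.

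Methylation of H3K4 is laid down by the SET1 and MLL families of methyltransferases and removed by the KDM1 and KDM5 demethylases. H3K4me3 is known as the mark of promoters, above all those rich in CG dinucleotides, and recruits factors that start transcription. H3K4me1 is known from enhancers and from the borders of active promoters, and the same histone tail cannot carry both states at the same residue at once, although neighbouring nucleosomes, the 2 tails of a nucleosome or different cells of a sample can.

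After filtering, the H3K4me3 libraries held 25.98 to 26.9 M tags and the H3K4me1 libraries 29.6 to 33.7 M, against 1 shared control input of 28.8 M. H3K4me1 peaks were called in the broad mode of MACS2, which joins enriched stretches, and H3K4me3 peaks in the narrow mode with a later version of the caller. The mark, the antibody, the caller mode and version and, largely, the sequencing lane change together, and their parts in a difference between the marks cannot be told apart. Only the second of 3 lanes named in the file headers holds both marks, with H3K4me3 library 4 (51537 peaks) and H3K4me1 library 1 (151709 peaks). Peak lists hold no cell type information, and the label was checked in the RNA of 3 other control neuron libraries (60.6 to 69.1 M counts). Summed CPM (counts scaled by the library total) of 6 neuronal markers were 6043 to 6122 there and 12779 to 13539 in 6 libraries of whole CA tissue. Those of 3 inhibitory neuron markers were 394 to 474 against 542 to 733. The 4 astrocyte markers gave 23.1 to 28.4 against 1223 to 1423 and 4 oligodendrocyte markers 111 to 127 against 3245 to 4676. For 4 microglial markers the sums were 7.88 to 8.65 against 242 to 297 and for 3 endothelial markers 0.898 to 1.37 against 116 to 138. No marker was at 0. None of the 6 neuronal markers had a higher mean in sorted neurons than in whole CA tissue. The check thus rests on the low glial and endothelial values.

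The combinations of both marks at gene starts, described further on, are shown by 4 promoters that were each taken from a gene list because they stand for 1 combination in all 8 libraries. For each, the 250 bases before the annotated start site are printed 5′ to 3′ on the strand of the gene, from RefSeq on GRCm38.p6, with CG dinucleotides in capitals. The promoter of Kmt2c, an H3K4 methyltransferase gene with H3K4me3 and no H3K4me1 at its start, lies at chr5:25498784-25499033 on the minus strand and holds 48 CG. That of Npas4, an activity-induced transcription factor gene with both marks at its start, lies at chr19:4989972-4990221 on the minus strand and holds 16 CG. The most downstream of the 7 listed starts of Bdnf, the gene of a neurotrophin, had H3K4me1 and no H3K4me3, and its stretch at chr2:109722671-109722920 on the plus strand holds 7 CG. Gfap, an astrocyte filament gene with neither mark at its start, has its stretch at chr11:102897201-102897450 on the minus strand, with 2 CG.
Kmt2c: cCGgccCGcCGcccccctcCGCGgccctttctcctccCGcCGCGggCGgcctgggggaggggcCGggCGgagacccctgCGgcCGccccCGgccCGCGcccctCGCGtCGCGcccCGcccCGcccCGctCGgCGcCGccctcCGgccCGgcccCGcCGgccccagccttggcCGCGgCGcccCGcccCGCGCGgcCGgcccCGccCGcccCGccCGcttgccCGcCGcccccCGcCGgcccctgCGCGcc
Npas4: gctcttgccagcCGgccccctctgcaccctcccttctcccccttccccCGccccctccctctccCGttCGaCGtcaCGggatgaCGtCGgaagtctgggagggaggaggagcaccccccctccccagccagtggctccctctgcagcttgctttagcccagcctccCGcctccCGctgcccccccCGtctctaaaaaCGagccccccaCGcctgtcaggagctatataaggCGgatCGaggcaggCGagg
Bdnf: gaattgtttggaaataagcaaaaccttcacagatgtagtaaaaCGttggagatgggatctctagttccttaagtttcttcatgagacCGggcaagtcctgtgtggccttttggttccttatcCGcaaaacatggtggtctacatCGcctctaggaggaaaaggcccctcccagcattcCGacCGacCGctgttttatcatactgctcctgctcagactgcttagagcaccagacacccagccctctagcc
Gfap: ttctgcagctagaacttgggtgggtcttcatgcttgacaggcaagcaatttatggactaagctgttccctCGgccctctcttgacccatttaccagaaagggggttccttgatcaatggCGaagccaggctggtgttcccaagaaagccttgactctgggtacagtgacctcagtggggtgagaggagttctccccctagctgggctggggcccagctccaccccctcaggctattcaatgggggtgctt

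H3K4me1 peaks were more numerous and wider, and they covered about 5 times as much of the genome as H3K4me3 peaks. The H3K4me3 libraries 1 to 4 held 47891, 46408, 49310 and 51537 peaks, and the H3K4me1 libraries 151709, 144363, 136102 and 132154. The lists did not overlap in size, and H3K4me1 peaks were 2.89 times as many (mean 141082 ± 8722 against 48786 ± 2183, SD, n = 4 each). H3K4me3 peaks covered 47.4, 48.7, 50.3 and 51.2 Mb and H3K4me1 peaks 265.3, 244.3, 236.8 and 240.5 Mb, a ratio of 4.99. Relative to the effective genome size of 1.87 Gb that the caller used, H3K4me3 took 2.64% ± 0.09 and H3K4me1 13.2% ± 0.68 (SD, n = 4). The mean peak width was 1013 ± 27.9 bp for H3K4me3 and 1750 ± 52.6 bp for H3K4me1, a ratio of 1.73. Median widths were 512 ± 20.5 bp and 1068 ± 27.9 bp, a ratio of 2.09, and peaks of at least 2 kb were 15.9% ± 0.81 and 25.4% ± 0.86 of the lists, a ratio of 1.60 (SD, n = 4). In each of these 5 measures the libraries of one mark all lay on one side of those of the other, which gives the smallest p that 4 against 4 libraries allow (two-sided exact permutation test, p = 0.0286, adjusted 0.0286 over 5 measures).

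**Figure D1:**
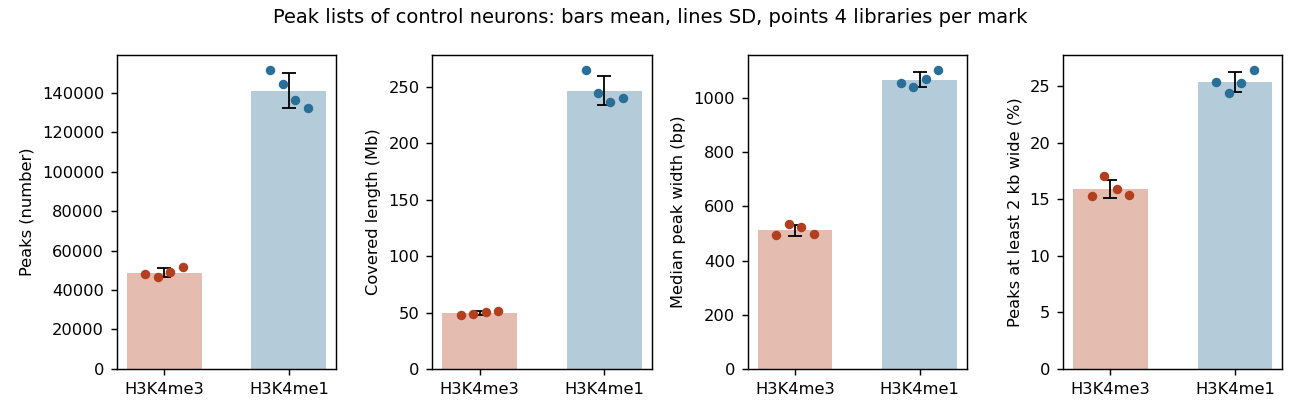
Peak number, covered length (Mb), median peak width (bp) and percent of peaks at least 2 kb wide for the H3K4me3 and H3K4me1 libraries of control neurons; bars are means, lines the SD and points the 4 libraries. In every panel the 4 H3K4me1 libraries lie above the 4 H3K4me3 libraries.

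These differences describe the lists as called, and part of them depends on the weak and short peaks. With peaks kept only at a −log10 q of at least 5, 33767 to 36615 H3K4me3 peaks and 3211 to 10194 H3K4me1 peaks remained, and the direction of the difference in number and in covered length turned. The caller writes a summit value for a narrow peak and a mean over the region for a broad one, so that the 2 marks do not pass such a threshold on the same quantity. Without peaks under 500 bp the median widths were no longer called different (log2 ratio -0.02, exact permutation test, adjusted p = 0.4), nor was the share of wide peaks (log2 ratio 0.03, adjusted p = 0.4).

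The listed fold enrichment was spread over a wide range among H3K4me3 peaks and a narrow one among H3K4me1 peaks. These values are not the same quantity, being taken at the summit in narrow lists and as a mean over the region in broad ones. The parts of mark and caller mode in this contrast cannot be told apart. The fold enrichment over input, the authors' own value for each peak, had a median of 6.17 ± 0.31 in the H3K4me3 lists and 2.92 ± 0.09 in the H3K4me1 lists (SD, n = 4). Within the H3K4me3 lists the median climbed with width, from 4.17 ± 0.17 under 500 bp to 8.02 ± 0.59 at 500 bp to 1 kb, 32.6 ± 1.84 at 1 to 2 kb, 49.6 ± 1.86 at 2 to 4 kb and 51.5 ± 2.03 from 4 kb on. Within the H3K4me1 lists it went from 2.67 ± 0.09 to 3.35 ± 0.09 over the same classes. Peaks under 500 bp made up 49.3% ± 1.14 of the H3K4me3 peaks and 13.4% ± 0.62 of their bases. The 15.9% of H3K4me3 peaks that were at least 2 kb wide held 49.9% ± 1.25 of the bases. The H3K4me1 lists were less uneven, with 20.4% ± 1.03 of the peaks under 500 bp, and 8.55% ± 0.46 of them from 4 kb on, which held 35.9% ± 1.303 of the bases (SD, n = 4).

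Libraries of the same mark shared a larger part of their joint length than libraries of different marks. The Jaccard index, the shared bases as a percent of the bases in either list, was 78.3 to 80.0% over the 6 pairs of H3K4me3 libraries and 66.2 to 67.6% over the 6 pairs of H3K4me1 libraries. Between the marks it was 12.9 to 14.7% over the 16 combinations. H3K4me1 lists covered 4.99 times the length of H3K4me3 lists, so this index would stay low even with all H3K4me3 inside H3K4me1. The contrast with the values within a mark is thus partly set by list length.

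Nearly all H3K4me3 peaks met an H3K4me1 peak, whereas most H3K4me1 peaks met no H3K4me3. In the same-numbered pairs of libraries 1 to 4, 92.9%, 91.6%, 90.6% and 89.0% of H3K4me3 peaks shared at least 1 base with H3K4me1 (mean 91.0% ± 1.64, SD, n = 4). In the other direction, 24.2%, 25.6%, 27.5% and 28.4% of H3K4me1 peaks shared a base with H3K4me3 (26.4% ± 1.87). By bases, 73.1% ± 1.49 of the H3K4me3 length lay inside H3K4me1, beside the 13.2% of the effective genome that H3K4me1 covered. Of the H3K4me1 length, 14.7% ± 0.95 lay inside H3K4me3, beside the 2.64% that H3K4me3 covered (SD, n = 4). The overlap is thus deep for the smaller list and shallow for the larger one, and both shares lie above the genome-wide cover of the other mark. With the same number of strongest peaks, 46408, taken from every library, the share of H3K4me3 peaks that met H3K4me1 was 64.4% and that of H3K4me1 peaks that met H3K4me3 48.8%. At a −log10 q of at least 5 these shares were 14.6% and 64.8%. That threshold kept 73.0% ± 2.64 of the H3K4me3 peaks and 4.63% ± 2.61 of the H3K4me1 peaks (SD, n = 4). The cause of the shift was not tested.

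How H3K4me1 lay relative to H3K4me3 depended on the width of the H3K4me3 peak. Each H3K4me3 peak was put in 1 of 5 classes: covered (at least 90% of its bases in H3K4me1), gapped (its centre free of H3K4me1, with H3K4me1 within 1 kb outside both edges), flanked on 1 side only, without H3K4me1 inside or within 1 kb, and other partial overlap. Over all widths 67.3% ± 1.98 were covered, 8.24% ± 1.18 gapped, 6.06% ± 0.68 flanked on 1 side, 11.1% ± 0.72 of the partial kind and 7.35% ± 1.63 without H3K4me1 (SD, n = 4 pairs). Covered peaks fell from 79.4% ± 2.70 of those under 500 bp to 74.8% ± 1.53, 62.8% ± 1.87, 28.2% ± 2.84 and, from 4 kb on, 13.4% ± 1.65. The 90% rule is harder to meet for a longer peak. By bases the fall was smaller: 80.8% to 86.7% of the length of peaks under 500 bp lay in H3K4me1, and 61.6% to 65.2% from 4 kb on. Gapped peaks were 0.57% ± 0.10 and 1.02% ± 0.16 in the 2 narrowest classes, 8.88% ± 2.30 at 1 to 2 kb, 40.4% ± 3.98 at 2 to 4 kb and 36.4% ± 1.60 from 4 kb on. The widest class minus the narrowest was -65.9 ± 2.60 percentage points for covered and 35.9 ± 1.56 for gapped peaks, with the same direction in 4 of 4 pairs, a design in which an exact sign-flip test cannot pass 0.05. The size of the difference in covered peaks depended on the settings: it was -53.1 with peaks within 1 kb merged, -46.6 with the same number of strongest peaks, -9.28 at a −log10 q of at least 5 and -9.14 when a peak counted as covered at 50% of its bases. Peaks without H3K4me1 nearby were 11.8% ± 2.72 of the narrowest and 0.39% ± 0.11 of the widest class.

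**Figure D2:**
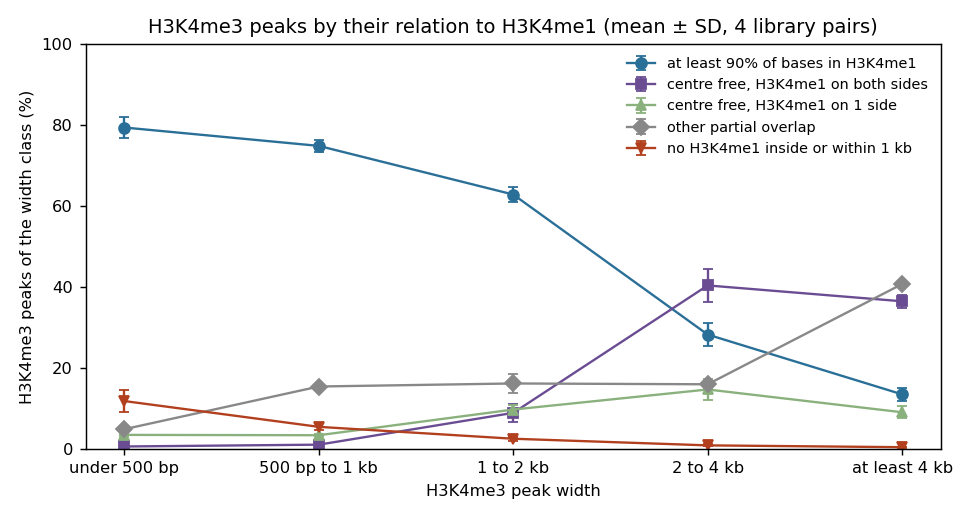
Percent of H3K4me3 peaks in each of the 5 relations to H3K4me1 (y axis) by H3K4me3 peak width class (x axis); points are means and lines the SD over 4 library pairs. The share of covered peaks goes from 79.4% in the narrowest class to 13.4% in the widest, and gapped peaks are above 36% in the 2 classes from 2 kb on.

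The contrast between the middle and the surroundings of an H3K4me3 peak had opposite signs in narrow and wide peaks. In peaks under 2 kb the centre base was inside H3K4me1 in 84.2% ± 1.55, and 55.1% ± 2.25 of the bases within 1 kb outside the edges were, a difference of -29.1 ± 0.98 percentage points. In peaks of at least 2 kb the centre was inside H3K4me1 in 44.9% ± 2.60 and the outer bases in 58.6% ± 3.04, a difference of 13.6 ± 3.67, which was 10.2 in the lowest and 17.4 in the highest pair (SD, n = 4). All 4 pairs showed each direction. H3K4me1 was lowest in the middle of these peaks: at 2 to 4 kb, 83.5% ± 2.65 of the positions in the outermost of 20 equal parts of the peak were inside H3K4me1, and 43.4% ± 2.80 in the part next to the centre. From 4 kb on the share was 86.5% ± 1.46 in the outermost part and 52.9% ± 2.20 next to the centre. Outside, the H3K4me1 share dropped from 70.9% ± 3.52 within 250 bp of the edge of a peak of 2 to 4 kb to 35.1% ± 2.63 at 1 to 2 kb and 19.97% ± 1.10 at 5 to 10 kb. Joining peaks of a mark that lay within 1 kb of each other turned the contrast in the wide peaks (-0.78 percentage points); it joins H3K4me1 across short gaps too. The contrast was -0.55 at a −log10 q of at least 5. The contrast in wide peaks also moved with the flank, from 21.4 with 500 bp to 3.32 ± 3.32 with 2 kb, and it was 6.12 with the same number of strongest peaks. With the caller's summit in place of the centre, a choice made after seeing the data, it was 26.01.

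**Figure D3:**
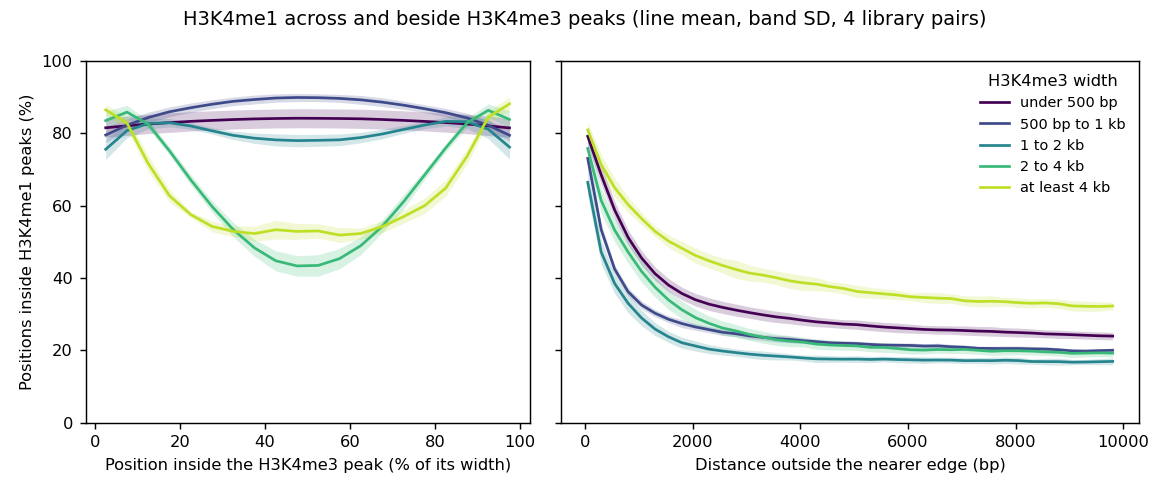
Percent of positions inside H3K4me1 peaks (y axis) along H3K4me3 peaks scaled to their width (left x axis, percent) and by distance outside the nearer edge (right x axis, bp), for 5 H3K4me3 width classes; lines are means and bands the SD over 4 library pairs. The 2 widest classes dip in the middle, to 43.4% at 2 to 4 kb, while the 2 narrowest do not.

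The gapped peaks were among the most enriched H3K4me3 peaks, and the 2 marks interlocked at their edges. There were 4232, 4421, 3823 and 3534 of them in pairs 1 to 4, with a median H3K4me3 width of 2549 ± 85.5 bp and a median H3K4me1 gap of 1278 ± 72.5 bp (SD, n = 4). In the median the gap took 50.7% ± 1.27 of the H3K4me3 width, and H3K4me1 reached 599 ± 7.87 bp inside the H3K4me3 edge. H3K4me1 thus overlapped the outer parts of the wide H3K4me3 peaks rather than stopping at their borders. The median fold enrichment was 51.8 ± 1.95 for gapped peaks, 36.5 ± 3.02 for peaks flanked on 1 side, 5.06 ± 0.21 for covered peaks and 4.62 ± 0.42 for peaks without H3K4me1 nearby. These classes also differed in width: covered peaks had a median of 400 ± 11.5 bp and those without H3K4me1 277 ± 12.1 bp. Among peaks of 2 to 4 kb alone the medians were 53.0 ± 1.85 for gapped, 42.2 ± 0.91 for covered and 33.6 ± 1.03 for those without H3K4me1 (34 to 68 peaks per library).

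Seen from H3K4me1, 73.2% ± 1.82 of the peaks had no H3K4me3 within 1 kb, and only 0.39% ± 0.05 lay within 1 kb of H3K4me3 without touching it. The share that met H3K4me3 went up with H3K4me1 width, from 10.8% ± 1.62 under 500 bp to 17.4% ± 1.45, 27.4% ± 1.73, 41.6% ± 1.96 and 58.8% ± 1.79 from 4 kb on (SD, n = 4), a direction that a longer interval favours by its length. By bases the H3K4me3 share was 8.81% ± 1.36 in the narrowest class and between 11.03% and 16.8% in the others. H3K4me1 peaks that met H3K4me3 had a median fold enrichment of 3.29 ± 0.07, and those with none within 1 kb 2.82 ± 0.08.

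Merging the peaks of the 4 libraries of a mark gave 61950 H3K4me3 regions and 168098 H3K4me1 regions. A peak in 4 of 4 libraries was found in 31079 H3K4me3 regions (50.2%) and 97472 H3K4me1 regions (57.99%). Of these recurrent H3K4me3 regions 28098 (90.4%) held H3K4me1 in 4 of 4 libraries and 1173 (3.77%) in none. Of the recurrent H3K4me1 regions 57797 (59.3%) had H3K4me3 in no library and 28488 (29.2%) in 4. When at least 50% of a region had to be covered to count as marked, 26158 H3K4me3 regions were recurrent, of which 69.9% held H3K4me1 in 4 libraries and 8.96% in none, and of 60854 recurrent H3K4me1 regions 83.5% had no H3K4me3. Base by base, 40.0 Mb were in H3K4me3 in 4 libraries, of which 59.0% were in H3K4me1 in 4 libraries and 19.3% in none. H3K4me1 held 164.2 Mb in 4 libraries, of which 76.0% were free of H3K4me3 in every library.

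The widest H3K4me3 region covered 28609, 28268, 28658 and 28756 bp at chr13:83712996-83742091, over the noncoding gene C130071C03Rik and Mir9-2, a microRNA gene of neural cells. H3K4me1 covered 14610, 11201, 14400 and 9777 bp of it, so that H3K4me3 varied little and H3K4me1 more between libraries. Another of the 3 widest, at chr1:77499161-77517488, holds a start of Epha4, an ephrin receptor gene, with 16601 to 17856 bp in H3K4me3 and 13410 to 14022 bp in H3K4me1. The first was also the widest of 1433 regions that were gapped in every control library, and among the 3 widest of these was chr4:82493978-82508427 over Nfib, a transcription factor gene, where H3K4me3 covered 13915 ± 180 bp and H3K4me1 8265 ± 998.8 bp (SD, n = 4). These gapped regions had a median width of 3136 bp, against 1192 bp for all recurrent H3K4me3 regions.

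Other H3K4me3 regions lay wholly inside H3K4me1. Of 12733 regions with at least 90% of their bases in H3K4me1 in every library, the widest were chr15:68945855-68956550 over Khdrbs3, an RNA-binding splicing regulator, chr2:165872778-165880987 at a start of Zmynd8, a chromatin reader, and chr11:70022933-70030632 at a start of Dlg4, which encodes the postsynaptic scaffold PSD-95. H3K4me1 covered every base of these 3 in 4 of 4 libraries, and H3K4me3 covered 8719 ± 710, 7568 ± 192 and 7238 ± 239 bp (SD, n = 4). The 1018 regions with no H3K4me1 inside or within 1 kb were mostly short, with a median width of 500 bp. The widest 3 of them were all on the X chromosome: chrX:43426186-43431188 over Tenm1, a teneurin adhesion gene, chrX:82813953-82818057 over Dmd, the dystrophin gene, and chrX:151800343-151803140 over Huwe1, a ubiquitin ligase gene. H3K4me3 covered 4833 ± 123, 3738 ± 291 and 2726 ± 34.9 bp there, and H3K4me1 0 bp in every library.

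The longest H3K4me1 regions without H3K4me3 overlapped long genes of neurons. H3K4me1 covered 34798 ± 555 bp at chr2:6537875-6574945 over Celf2, an RNA-binding splicing regulator, 30423 ± 839 bp at chr11:118606813-118640371 over Rbfox3, the gene of the neuronal nuclear protein NeuN, and 28080 ± 811 bp at chr6:135810774-135841513 over Grin2b, an NMDA receptor subunit gene (SD, n = 4). H3K4me3 covered 0 bp of the 3 in all libraries. At the other end, single H3K4me1 regions held up to 55 recurrent H3K4me3 regions. The first of them, chr8:123537215-123625001, is the cluster of 5S ribosomal RNA genes, whose near-identical copies share reads, so that its peaks are uncertain. The next were chr8:84698240-84770296 with the transcription factor genes Lyl1 and Nfix and 17 H3K4me3 regions, and chr12:107915826-108000906 at Bcl11b, a transcription factor gene of CA1 and cortical neurons, with 15. The annotation used gives gene spans and start sites, so exons and introns are not told apart here.

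H3K4me3 peaks were nearer to gene starts than H3K4me1 peaks. Of the H3K4me3 peaks 30.2% ± 1.04 lay within 1 kb of an annotated start and of the H3K4me1 peaks 13.1% ± 0.35 (SD, n = 4; exact permutation test, two-sided, p = 0.0286, log2 ratio -1.21), with no overlap between the libraries of the marks. At a −log10 q of at least 5 the log2 ratio was -0.20 and the call was lost (exact permutation test, p = 0.143). Over 10 kb from any start lay 46.6% ± 1.32 of the H3K4me3 and 69.5% ± 0.42 of the H3K4me1 peaks. Width split the H3K4me3 peaks: 78.4% ± 0.17 of those of at least 2 kb and 7.82% ± 0.43 of those under 500 bp were within 1 kb of a start. The same classes of H3K4me1 gave 22.6% ± 0.26 and 7.11% ± 0.57. The starts used lie on 20 chromosomes; starts on chromosome 18 were not analysed here.

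At the start base itself the 32817 start sites were sorted by the number of libraries that held each mark. H3K4me3 in 4 libraries and H3K4me1 in none was found at 5583 starts (17.01%), both marks in all libraries at 5041 (15.4%), H3K4me1 in 4 and H3K4me3 in none at 1527 (4.65%) and neither mark in any library at 13709 (41.8%). The other 6957 (21.2%) differed between libraries. Starts with H3K4me3 alone had the wider and stronger H3K4me3 peaks, of 2712 ± 49.1 bp and a fold enrichment of 52.5 ± 1.997 in the median, against 1624 ± 33.2 bp and 32.8 ± 1.11 at starts with both marks (SD, n = 4). Of the peaks at the first kind 53.9% ± 3.27 were gapped and 22.6% ± 3.29 flanked on 1 side, and of those at the second kind 81.5% ± 2.80 were covered. The absence of H3K4me1 from the start base defines the first kind, so its gap there is no result. The presence of H3K4me1 at the start base defines the second kind, which favours covered peaks there. The flanks of the first kind are not set in this way: H3K4me1 stood beside the gap on both sides and reached farther into the gene.

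Along the direction of transcription, H3K4me1 at the starts with H3K4me3 alone peaked at 52.8% ± 2.61 of starts 1000 bp upstream and at 73.4% ± 2.15 of starts 1500 bp downstream. From 1 to 2 kb it covered 43.8% ± 1.92 of the upstream and 71.2% ± 2.33 of the downstream bases, a difference of 27.4 ± 0.43 percentage points in the same direction in 4 of 4 pairs. From 2 to 3 kb the values were 28.6% ± 1.39 and 60.9% ± 2.26, a difference of 32.3 ± 0.88. Next to the start the order was the other way, with 13.3% ± 1.93 upstream and 5.84% ± 0.96 downstream within 500 bp. H3K4me3 was also shifted into the gene, with 29.8% ± 0.69 upstream and 60.8% ± 1.07 downstream from 1 to 2 kb. At starts with both marks H3K4me1 from 1 to 2 kb covered 27.6% ± 1.19 upstream and 48.3% ± 1.99 downstream, and at starts with H3K4me1 alone 39.6% ± 1.97 and 44.4% ± 1.42 (SD, n = 4). With 4 libraries an exact sign-flip test of these differences cannot pass 0.05.

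**Figure D4:**
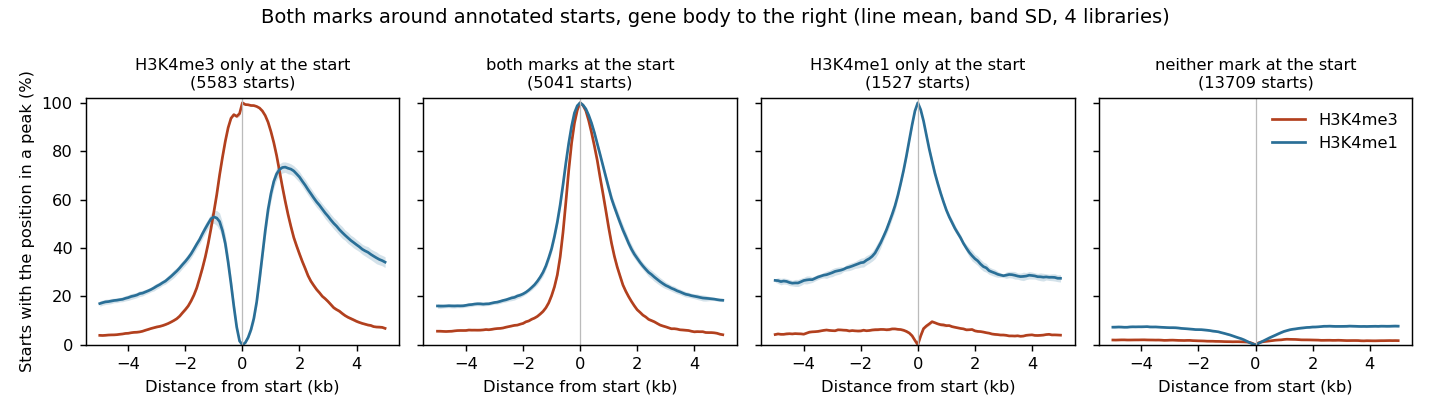
Percent of start sites with the position inside an H3K4me3 or H3K4me1 peak (y axis) by distance from the start in kb (x axis, gene to the right) for the 4 combinations of marks at the start base; lines are means and bands the SD over 4 libraries. The values at distance 0 are set by how the classes were made; at starts with H3K4me3 alone H3K4me1 stands at 52.8% upstream and 73.4% downstream.

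The combinations differed in base composition, which the peak lists did not use. In the 300 bases from 250 before to 50 after the start, the median number of CG dinucleotides was 25 at starts with H3K4me3 alone, 16 with both marks, 4 with H3K4me1 alone and 3 with neither, against 7 over all starts. Starts that differed between libraries had a median of 14 CG. The printed stretches of Kmt2c, Npas4, Bdnf and Gfap follow the order of the combinations, but they were picked as examples and lend it no weight. Neurod6, with H3K4me3 alone and 3 CG in its window, does not follow it. Of the 8684 starts with 20 or more CG, 46.1% had H3K4me3 alone and 2.69% neither mark, whereas of the 7655 starts with at most 2 CG 0.51% had H3K4me3 alone and 84.9% neither. The letters GGGCGG, a GC box, occurred on either strand in 71.8% of the windows with H3K4me3 alone, 58.3% with both marks, 17.9% with H3K4me1 alone and 8.53% with neither, against 35.6% of all windows. Since the GC box contains a CG, it is not independent of the CG count. The letters TATAAA ran the other way, at 5.03%, 7.72%, 12.9% and 21.7%, against 13.6% of all windows. A match describes the letters only.

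The share of genes with RNA counted in sorted neurons differed between the same combinations. Among 16455 genes with 1 annotated start and an RNA row, counts of at least 1 CPM were found in 94.7%, 94.7% and 94.8% of those with H3K4me3 alone in the 3 neuron libraries, in 70.3%, 70.7% and 70.6% of those with both marks, in 26.9%, 23.9% and 25.3% of those with H3K4me1 alone and in 8.54%, 8.50% and 8.81% of those with neither. Genes whose start differed between libraries gave 73.3%, 73.5% and 73.6%. CPM are not divided by transcript length, so these shares say how many genes had RNA counted, not how genes rank. Within the starts of at least 10 CG the shares in library 1 were 95.4% of 3305 genes with H3K4me3 alone, 71.3% of 2319 with both marks, 20.3% of 74 with H3K4me1 alone and 31.8% of 402 with neither. Below 10 CG they were 81.9% of 171, 65.7% of 498, 28.2% of 369 and 6.91% of 5760. The order of H3K4me3 alone above both marks was thus found in each CG class.

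The combinations were also looked up at the starts of genes of known function, as a description. Of 8 widely expressed genes 7 have an annotated start in the table used. H3K4me3 alone was found at 5 of these 7 starts, beside 17.01% of all starts and 46.1% of those with 20 or more CG. The 5 were those of Gapdh and Pgk1, which encode glycolytic enzymes, Ppia, a peptidyl-prolyl isomerase gene, and the translation genes Rpl13a and Eef1a1. The H3K4me3 peak over the start of Gapdh was 4016, 3749, 4354 and 4183 bp wide in libraries 1 to 4, and H3K4me1, absent from the start, covered 2543, 2263, 2399 and 2338 bp of the 4 kb around it. The start of Tbp, the TATA-binding protein gene, had H3K4me3 in 4 libraries and H3K4me1 in 2, and that of Hprt, a purine salvage gene, H3K4me3 in 3 and H3K4me1 in none.

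Of 10 neuronal genes 8 have a listed start, with 11 starts in all. H3K4me3 alone stood at 7 of these 11 starts, beside 17.01% of all starts and 46.1% of those with 20 or more CG. Among the 7 were the starts of Slc17a7, the vesicular glutamate transporter, Grin1, the obligatory NMDA receptor subunit, and Gria2, an AMPA receptor subunit. Both starts of Syt1, the calcium sensor of vesicle release, and the start of Neurod6, a neuronal transcription factor, were also among them. These peaks were wide: at Gria2 10886, 10589, 11429 and 10653 bp, at Syt1 7134, 7343, 7669 and 7719 bp and at Neurod6 6231, 6266, 6361 and 6434 bp. The window of Neurod6 holds 3 CG, the same number as that of Gfap, so a start poor in CG also carried a wide H3K4me3 peak. Dlg4 showed 3 patterns at its 3 starts: H3K4me3 alone at position 70018605 of chromosome 11, both marks at 70023982 and no H3K4me3 at 70017203. Starts that differed between libraries were that last one of Dlg4, the start of Map2, a microtubule-associated protein gene, with H3K4me3 in 4 libraries and H3K4me1 in 1, and the start of Rbfox3. The Rbfox3 start had H3K4me1 in 4 libraries, in peaks of 33314, 12966, 14773 and 33751 bp, and H3K4me3 in 1, in a peak of 180 bp.

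Several activity-induced genes had both marks at the start. Of 8 such genes 6 have a listed start, with 13 starts. Both marks were present in all libraries at 6 of the 13: the starts of Fos, Npas4 and Nr4a1, immediate early transcription factor genes, at 2 of 7 starts of Bdnf and at the downstream start of Homer1, which encodes a postsynaptic scaffold. At Fos the H3K4me3 peak was 2646, 4187, 4117 and 4085 bp wide and lay in H3K4me1 peaks of 5180, 4793, 4918 and 4987 bp. At Npas4 H3K4me3 peaks of 3041, 4102, 3982 and 3879 bp lay in H3K4me1 peaks of 18379, 18519, 18133 and 18198 bp, so that H3K4me1 covered all of the 4 kb around the start in every library. Homer1 had H3K4me3 alone at its upstream start, Bdnf had H3K4me1 alone at its most downstream start, and 5 starts differed between libraries. Over all starts 17.01% had H3K4me3 alone and 15.4% both marks, and the counts in these short lists, which were chosen with earlier results of these data known, are a description.

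The genes of enzymes that write and erase H3K4 methylation were alike at their listed starts. Of 10 such genes 7 have a listed start, and all 7 had H3K4me3 alone: the methyltransferase genes Setd1a, Kmt2a, Kmt2c and Kmt2d and the demethylase genes Kdm1a, Kdm5b and Kdm5c. H3K4me3 alone was found at 17.01% of all starts and at 46.1% of those with 20 or more CG. The count of 7 is a description of this list. Their H3K4me3 peaks ranged from 2096 bp at Kdm1a in library 1 to 6755 bp at Kmt2a in library 4. The peak of Kmt2c was 2293, 2285, 2304 and 2264 bp wide.

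Of 9 glial and vascular genes 4 have a listed start, and none of these 4 starts had H3K4me3 in any library. Over all starts 41.8% had neither mark and 4.65% had H3K4me1 alone. In a single library 45.5% ± 0.39 of all starts lay in H3K4me3 (SD, n = 4). Gfap, Mog, a myelin gene, and Cx3cr1, a microglial receptor gene, had neither mark at the start in any of the 8 libraries, and Cldn5, an endothelial tight junction gene, had H3K4me1 there in 1. Within 2 kb of the start Mog and Cx3cr1 had 0 bp of either mark, Gfap had 545 to 1240 bp of H3K4me1 and Cldn5 897 to 1169 bp of H3K4me3 and 1719 to 1872 bp of H3K4me1. Of 8 genes of embryonic development 4 have a listed start. Hoxd10, with 22 CG in its window, and Gata1 had neither mark, and the starts of Pax2 and Nkx2-5 varied between libraries, with H3K4me1 in 2 to 4 and H3K4me3 in 0 to 2.

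On the X chromosome the 2 marks covered about the same length. The ratio of H3K4me1 to H3K4me3 covered length was 1.31, 1.05, 0.937 and 0.856 in pairs 1 to 4 (mean 1.04 ± 0.20, SD, n = 4), and on the autosomes the means went from 4.22 ± 0.30 on chromosome 19 to 5.87 ± 0.50 on chromosome 16. The X chromosome held 2.85% of the H3K4me3 length and 0.586% of the H3K4me1 length. Of 810 recurrent H3K4me3 regions on it 37.9% held H3K4me1 in 4 libraries and 17.7% in none, against 91.8% and 3.38% of 30258 on the autosomes. The median fold enrichment of H3K4me1 peaks was 2.64 ± 0.07 on the X chromosome and 2.93 ± 0.09 on the autosomes, and that of H3K4me3 peaks 9.42 ± 3.21 and 6.10 ± 0.24 (SD, n = 4). H3K4me3 library 4 stood apart on the X chromosome, with 4.62 against 10.7 to 11.4 in the others. The sex of the animals is not given in the sources used here, and its part in this ratio was not tested. The 8 libraries of Setd1b cKO neurons, with an input of their own, gave ratios of 1.11 to 1.74 on the X chromosome and 5.32 to 7.15 on the autosomes.

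**Figure D5:**
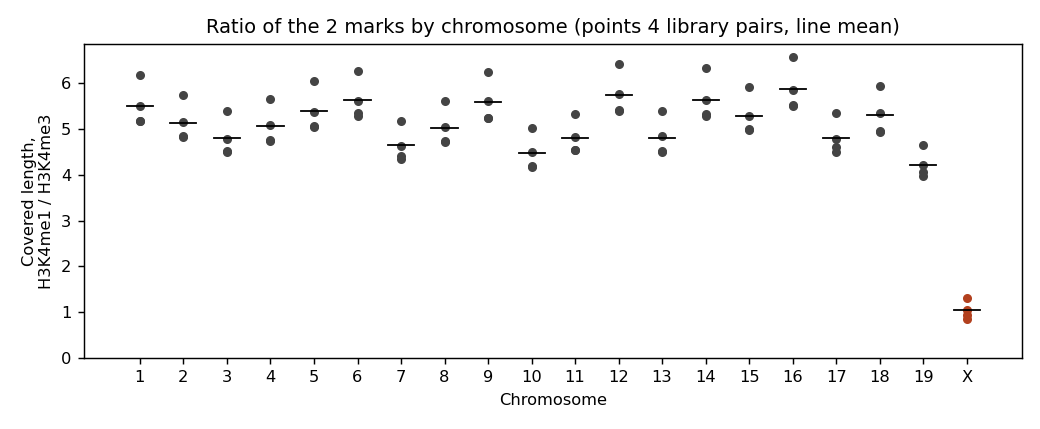
Ratio of the length covered by H3K4me1 to that covered by H3K4me3 (y axis) on each chromosome (x axis); points are the 4 library pairs of control neurons and short lines their means. The X chromosome, at 1.04, lies below all 19 autosomes, the lowest of which is chromosome 19 at 4.22.

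The same joint measures in Setd1b cKO neurons were set beside those of controls. None of 7 measures passed the exact permutation test of 4 against 4 pairs after adjustment (adjusted p = 0.3 to 0.543; unadjusted, 0 of 7 were under 0.05). H3K4me3 bases inside H3K4me1 were 73.1% ± 1.49 in control and 77.8% ± 3.70 in cKO pairs, and H3K4me1 in the 1 kb flanks 55.7% ± 2.37 and 51.6% ± 3.07 (SD, n = 4). Covered peaks were 67.3% ± 1.98 and 70.2% ± 4.05 and gapped peaks 8.24% ± 1.18 and 6.98% ± 1.22, with overlapping ranges. The flank minus centre over all peaks, which was not among the measures tested, was -23.7 to -21.2 percentage points in the control and -28.7 to -25.7 in the cKO pairs, without overlap. Peaks of at least 4 kb, also not tested, numbered 1271 to 1437 per library in control and 237 to 479 in cKO. They were picked by width in the lists of each genotype, so the places compared need not be the same. The part of that choice in the differences that follow was not tested. The flank minus centre of these wide peaks was 12.8 to 15.9 in control pairs and had the opposite sign in 4 of 4 cKO pairs, at -6.14, -3.66, -6.03 and -3.37. Their centres were in H3K4me1 in 51.2% to 55.9% of control and 61.5% to 72.2% of cKO peaks, covered peaks were 11.3% to 15.3% and 17.9% to 35.4%, and gapped peaks 36.4% ± 1.60 and 24.97% ± 2.08, in each case without overlap. From 2 kb on the contrast was 13.6 ± 3.67 in control and 5.29 ± 5.34 in cKO pairs (SD, n = 4), with overlapping ranges. At a −log10 q of at least 5 all 7 measures differed (exact permutation test, adjusted p = 0.0286), among them H3K4me3 peaks that met H3K4me1 at 13.2 percentage points higher in cKO, where the main lists gave -0.60. That threshold kept 2.12% to 7.49% of the H3K4me1 peaks in control libraries and 7.35% to 12.6% in cKO libraries. Each genotype also had its own input, of 28.8 M tags in control and 31.3 M in cKO. The part of list length and input in these differences was not tested.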

How the data were processed

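The material was MACS2 peak lists of 4 H3K4me3 and 4 H3K4me1 ChIP-seq libraries of control neurons and the same of Setd1b cKO neurons, with RNA counts of 3 neuron and 6 whole CA control libraries. Per the file headers, the authors called peaks for each library against 1 input per genotype, removed duplicate tags, scaled the larger dataset to the smaller one and used a q cutoff of 0.1. The deposited lists give each peak a −log10 q, a fold enrichment ratio over input and a pileup signal, and the RNA tables hold read counts per gene, per the labels; the build is mm10, per the submitters' processing notes. Values in broad lists are means over a region. Peaks were compared by interval overlap of at least 1 base, in Python 3.11.15 with numpy 2.4.6 and pandas 2.3.3. Counts were divided by library totals to CPM. Regions were named by a rule: the 3 widest of each set, or those holding most regions of the other mark. Measures were compared with two-sided exact permutation tests over libraries, with Benjamini-Hochberg adjustment over 5 measures of the lists and 7 of the cKO comparison. Same-numbered libraries form the pairs; the check of those numbers is given with the alternatives. The scripts were tested on simulated data. The comparison, members and gene lists were chosen with earlier results of these data known. Start sites and promoter sequences are RefSeq's (GRCm38.p6). One region that the rule names is not reported here.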

Additional observations from a re-analysis of the deposited data

Results flagged for a closer look

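Of 46 groups of 4 values examined, 1 held a value far from the rest: the share of H3K4me3 peaks covered by H3K4me1 was 70.2% in pair 1 and 66.1% to 66.5% in the others, a gap of 0.901 of the whole range, above Dixon's critical value for 4 samples. Chance alone flags about 1 in 20 such groups.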

How the results depend on the processing

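Restricting the lists by strength turned more results in direction than any other setting tried; depth and the caller's mode were not varied. At a −log10 q of at least 5 the log2 ratio of H3K4me1 to H3K4me3 was -2.64 for peak number and -1.29 for covered length, both turned in direction, and -0.20 for the share of peaks near a start, no longer called. H3K4me3 peaks meeting H3K4me1 were then 14.6%, H3K4me1 peaks meeting H3K4me3 64.8%, H3K4me3 bases in H3K4me1 11.4%, H3K4me1 bases in H3K4me3 26.2%, centres in H3K4me1 12.5%, flanks 8.52%, covered peaks 10.99% and gapped peaks 0.16%; in peaks of at least 2 kb the flank minus centre was -0.55 and the gapped share 0.65%. With the same number of strongest peaks the log2 ratio of peak number was 0 by construction, and the values in the same order were 64.4%, 48.8%, 51.9%, 18.98%, 55.5%, 41.5%, 49.6% and 2.88%, with 14.7% gapped from 2 kb on. With peaks within 1 kb merged, H3K4me3 bases in H3K4me1 were 76.0%, H3K4me1 bases in H3K4me3 15.8%, flanks 49.1%, the flank minus centre from 2 kb on -0.78 and the gapped share there 29.3%. Without peaks under 500 bp the log2 ratio of median width was -0.024 and that of the share of wide peaks 0.026, and the values in the order above were 93.5%, 21.5%, 70.01%, 12.7%, 70.7%, 49.3%, 55.5% and 12.5%, with 33.8% gapped from 2 kb on. The widest minus the narrowest class in covered peaks kept its direction but went from -65.9 to -9.28 at a −log10 q of at least 5 and -9.14 when covered meant 50% of bases, and the flank minus centre from 2 kb on went from 13.6 to 3.32 with a 2 kb flank. The causes of these shifts were not tested. Asking for 50% of a peak in the other mark gave 82.3% of H3K4me3 and 11.7% of H3K4me1 peaks; a flank of 500 bp gave 64.6% and one of 2 kb 45.2%; calling peaks covered at 50% gave 82.3% covered and 4.28% gapped; the summit, an alternative chosen after seeing the data, gave 74.7% in place of the centre; and the 50% rule for regions gave 8.96%, 69.9%, 83.5% and 11.03%. In the cKO comparison at a −log10 q of at least 5 the differences were 13.2, 7.69 and 0.293 percentage points for peaks meeting H3K4me1, flanks and gapped peaks, all turned in direction, and 12.3, -7.10, 11.6 and 10.99 for H3K4me3 bases, H3K4me1 bases, centres and covered peaks.

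Leaving out each replicate gave log2 ratios of 1.49 to 1.59 for peak number, 2.26 to 2.35 for covered length, 0.76 to 0.82 for mean width, 1.03 to 1.09 for median width, 0.64 to 0.73 for wide peaks and -1.24 to -1.18 for the share near starts; 3 against 3 libraries cannot pass 0.05. The cKO difference in peaks meeting H3K4me1 went from -1.58 to 0.118, turning in direction without replicate 1. Autosomes alone and all 16 combinations of libraries changed no direction or call among the results run under them.

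Region by region, covered lengths showed no pairing by replicate number: the deviations of same-numbered libraries over 28098 regions correlated at 0.0195, 0.0003, 0.0090 and 0.0093. Those of differently numbered libraries correlated at -0.0261 to 0.0178. Whole-list values of the marks ran opposite ways over the 4 pairs, with correlations of -0.87 for covered length, -0.79 for peak number and -0.81 for mean width. They were -0.57 for median width and -0.83 for the share of wide peaks. The check compares different marks, so it cannot tell whether same-numbered libraries share an animal. With the replicate block the log2 ratios stayed 1.53, 2.32, 0.79, 1.06, 0.68 and -1.21, and since 4 pairs cannot pass 0.05 none was called. Of the 7 cKO differences, none was called with or without the block.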
